A study of Mus musculus with 2 samples.

Results

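The 6 genes described here are Fcgr1, Fcgr2b, Fcgr3, Fcgr4, Fcer1g and Fcrls. The Fcgr genes encode mouse receptors for the constant part of immunoglobulin G (IgG). Fcer1g encodes the chain that the activating receptors signal through, and Fcrls a secreted relative. All were picked by gene symbol, as 6 of the 32285 genes counted, and every one of them was found. The RNA came from nuclei of macrophages that had entered mammary tumours (tumour-associated macrophages) in PyMT mice. Expression of the polyoma middle T oncogene causes the tumours, and the strain was backcrossed to B6. There were 2 samples, 1 per genotype. The recipients were control-PyMT or MYC-PyMT mice, the latter with S100a8-cre, driven by the promoter of a neutrophil gene, and a Rosa26-LSL-MYC allele. Every recipient was lethally irradiated when 7 weeks old and received marrow from Fcgr1-cre-Rosa26LSL-H2B-mCherry/+ donors, so that macrophages left from the host carried no label. From 2 weeks after the transplant they ate a low protein diet for 6 weeks. The macrophage gate took DAPI- CD45+ cells with F4/80 and Vcam and without SiglecF, Ly6G, B220 or Ly6C, and a second sort kept nuclei with mCherry and SYTO9 but without CD11b. Fcgr1 thus has a role in the design itself: its cre turns on the nuclear label, which then marks a history of Fcgr1 expression, whatever the present level. How many animals were pooled per sample is not given in the sources used here.

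Activating Fc gamma receptors bind IgG on coated cells or particles and signal through an immunoreceptor tyrosine-based activation motif (ITAM), which in the mouse lies on the shared gamma chain encoded by Fcer1g. Src-family kinases phosphorylate the motif and Syk binds to it, and engulfment, oxidative burst and cytokine release follow. Fcgr2b encodes the only classical inhibitory member, whose cytoplasmic inhibitory motif (ITIM) recruits the lipid phosphatase SHIP1, the product of Inpp5d. In macrophages the balance of activating and inhibitory receptors sets the threshold at which immune complexes trigger the cell, and antibody-dependent uptake of tumour cells runs through the same receptors. Fcgr1 encodes the high-affinity receptor, Fcgr3 a low-affinity receptor for immune complexes, and Fcgr4 a receptor of intermediate affinity for IgG2a and IgG2b. Fcrls encodes a secreted relative of the Fc receptors with a scavenger receptor domain, best known as a marker of microglia, and is neither activating nor inhibitory.

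On mouse build GRCm38, 4 of the 6 genes lay within 275.749 kb of chromosome 1: Fcgr2b at chr1:170958617-170976547, Fcgr4 at chr1:171018920-171029761, Fcgr3 at chr1:171051174-171064935 and Fcer1g at chr1:171229572-171234365. Fcgr4 is on the forward strand and the others on the reverse strand. Fcrls at chr3:87250758-87263738 and Fcgr1 at chr3:96282909-96293969 are on the reverse strand of chromosome 3. The annotation places the antisense gene Gm38204 across Fcgr2b, and whether reads were counted by strand is not given in the sources used here. Fcgr2b and Fcgr3, which arose as close relatives, shared 62 exact stretches of 91 bases, the length of the sequenced read, which is 1.07% of those in Fcgr2b transcripts and 3.58% of those in Fcgr3 transcripts. No other pair shared any, so reads of mature transcripts could be assigned to 1 gene nearly throughout. The sharing of intronic sequence was not analysed here.

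The 250 bases before the annotated start are printed for Fcgr1, Fcgr4 and Fcer1g, because these 3 genes were all higher in the nuclei rich in interferon-induced transcripts described below. Sequences are from RefSeq (GRCm38.p6), 5′ to 3′ on the strand of the gene. Capitals mark GAGGAA, the core bound by PU.1, and TTCNNNGAA, the gamma-activated site of interferon-induced genes, each searched on both strands.
Fcgr1: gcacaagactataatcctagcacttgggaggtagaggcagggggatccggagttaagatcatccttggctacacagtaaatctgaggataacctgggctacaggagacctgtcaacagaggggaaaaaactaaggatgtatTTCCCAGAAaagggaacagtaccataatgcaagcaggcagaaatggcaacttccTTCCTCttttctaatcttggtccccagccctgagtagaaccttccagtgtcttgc
Fcgr4: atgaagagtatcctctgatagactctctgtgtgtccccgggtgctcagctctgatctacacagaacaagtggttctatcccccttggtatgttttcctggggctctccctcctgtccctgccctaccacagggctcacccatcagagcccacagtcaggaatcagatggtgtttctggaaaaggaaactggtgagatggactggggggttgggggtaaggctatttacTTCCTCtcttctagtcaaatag
Fcer1g: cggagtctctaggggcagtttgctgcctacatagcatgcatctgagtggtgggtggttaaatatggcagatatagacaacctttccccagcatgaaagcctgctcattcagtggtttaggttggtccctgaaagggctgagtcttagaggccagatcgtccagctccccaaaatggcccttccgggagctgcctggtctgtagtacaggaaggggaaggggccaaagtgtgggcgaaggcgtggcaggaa
The first lies at chr3:96293970-96294219 on the reverse strand, the second at chr1:171018676-171018925 on the forward strand, with its last 6 bases in the annotated first exon, and the third at chr1:171234350-171234599 on the reverse strand, with 16 bases in the exon. The Fcgr1 window held TTCNNNGAA as TTCCCAGAA, 109 to 101 bases before the start, and GAGGAA as TTCCTC on the other strand, 55 to 50 bases before it. The Fcgr4 window held TTCCTC 22 to 17 bases before the start, and the Fcer1g window held neither motif. Among the other members, the windows of Fcgr3 and Fcrls held GAGGAA and that of Fcgr2b held neither motif. Those windows lie wholly or mostly inside the genes as annotated by GENCODE. The overlap was 250 bases for Fcgr2b (187 in exons), 250 for Fcgr3 (27 in exons) and 214 for Fcrls (136 in exons). Fcgr3 had 2 RefSeq entries, of which the first was used. Their matches therefore do not describe sequence upstream of the annotated genes. Of 27025 RefSeq promoter windows of the same length, 23.13% held GAGGAA and 7.179% held TTCNNNGAA, and all 6 members had an entry. These matches describe letters only.

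The counts come from 2 wells of a droplet run. Well 1 had 1383 barcodes and 5868606 unique molecular identifiers (UMIs, each a distinct captured molecule), and well 2 had 455 barcodes and 1512841 UMIs. The wells shared 9 barcode sequences. No label ties a well to a genotype, so all nuclei were treated as 1 pooled sample, no genotype comparison was made, and wells are given only as unmapped wells. The wells stood apart in more than size: transcripts of 4 Y-linked genes had 1 UMI in well 1 and 856 UMIs in well 2 (566 CPM, the UMIs of a gene per 1000000 UMIs of the set), and Xist stood at 1997 CPM in well 1 and 173 CPM in well 2. After filtering 1812 nuclei remained, of which 1235 with 3921328 UMIs were macrophage by 13 markers, 851 in well 1 (61.8% of its nuclei) and 384 in well 2 (88.3%). Despite the sort for mCherry, 237 nuclei were epithelial by marker, and a low-count cluster of 329 nuclei with as many epithelial as macrophage markers was left unnamed. The intervals below are exact 95% intervals of the counting error. They leave out the spread between mice and libraries, and those of levels and ratios also leave out the spread between nuclei. With 1 pooled sample no p-value can be given.

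Macrophage nuclei fell into 5 sub-clusters, clustered without the 6 genes and without the gene lists used below. The Mrc1-high set (272 nuclei, 34 in well 1 and 238 in well 2) was led by the genes Ednrb, Lyve1, Lyz1, F13a1 and Retnla. Its summed level of the resident macrophage list was 5522 CPM against at most 592 CPM in the other sets, yet Timd4, a defining gene of that list, had 0 UMIs and the 6 monocyte markers reached 870 CPM (Ccr2 671 CPM) against 8.34 to 228 CPM elsewhere. It is therefore called by its genes here. The Il1b-high set (335 nuclei, 330 in well 1) met the markers of an inflammatory and of an immediate-early state, with Il1b at 1278 CPM and the heat-shock gene Hspa1a at 1144 CPM. The Gpnmb-high set (231 nuclei, 111 and 120 in the wells) carried lipid-associated macrophage genes, with Gpnmb at 481 CPM. The Ifit-high set (35 nuclei, 27 and 8) carried interferon-induced genes, with Ifit3 at 347 CPM. The largest set (362 nuclei, 349 in well 1) got no state name and is called the unnamed set. It held the 18 nuclei of the cycling cluster. Its cycling list was at 516 CPM, above the 157 to 195 CPM of the other sets, with 7 of 8 markers counted, but 31.2% of its nuclei had a UMI of the list, under the 50% asked for a state name. Median depth lay between 2621 and 3324 UMIs per nucleus in all 5 sets. Of the lists for other cells that carry Fc receptors, in the macrophage nuclei the B cell list summed to 4.34 CPM, the NK cell list to 0.765 CPM, the mast cell list to 30.6 CPM with 3 of 6 markers at 0, and the neutrophil list to 104 CPM with 2 of 6 at 0. The dendritic cell list summed to 65.5 CPM (7.27 to 103 CPM across the 5 sets) and the plasma cell list to 64.8 CPM (56.6 to 69.2 CPM across the sets; 258 CPM in epithelial nuclei), each with 0 markers at 0. Their part in the levels below was not tested.

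All 6 genes were read in macrophage nuclei, and together they made up 670 CPM there (644 to 696; 2626 UMIs). In epithelial nuclei, which should lack them, the same sum was 15.3 CPM (11.2 to 20.4), which serves as the background level here. Of macrophage nuclei 71.0% had a UMI of at least 1 of the 6 genes at a median depth of 2834 UMIs. The other 358 had none, 402 had a UMI of exactly 1 gene, and 1 nucleus had UMIs of all 6. The 11 T cell nuclei held 5 Fcer1g UMIs and 0 of the other genes.

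Of the activating receptors, Fcgr1, whose cre made the label, stood at 59.2 CPM in macrophage nuclei (51.8 to 67.3; 232 UMIs), at 58.8 CPM for well 1 and 60.0 CPM for well 2. Fcgr3 stood at 79.3 CPM (70.7 to 88.6), at 65.9 CPM for well 1 and 108 CPM for well 2, and Fcgr4 at 66.3 CPM (58.5 to 74.9), with 51.7 and 97.6 CPM. The wells were alike in Fcgr1 within counting error, whereas the intervals of Fcgr3 and of Fcgr4 did not overlap between wells. The wells also held different mixes of sets, with 34 Mrc1-high nuclei in well 1 and 238 in well 2. Outside the Mrc1-high nuclei, Fcgr3 stood at 62.7 CPM for well 1 and 80.7 CPM for well 2, and Fcgr4 at 52.7 and 53.1 CPM. The part of this mix in the well differences was not tested. A UMI of Fcgr1 was seen in 14.9% of macrophage nuclei and in 2.53% of epithelial nuclei. When each nucleus was thinned to 1000 UMIs, so that depth was equal, these shares were 5.06% (3.88 to 6.48; 1165 nuclei) and 0% of 230 nuclei (upper limit 1.59%). Most sorted macrophage nuclei therefore gave no Fcgr1 UMI at this depth, which is a limit of detection and no measure of the label.

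The common signalling chain Fcer1g stood at 214 CPM (840 UMIs), at 185 CPM for well 1 and 277 CPM for well 2. The inhibitory receptor Fcgr2b stood at 214 CPM as well (199.7 to 229; 839 UMIs), but its wells differed more, at 137 CPM for well 1 (123 to 152) and 378 CPM for well 2 (345 to 414). Fcrls was the lowest, at 36.7 CPM (31.0 to 43.2; 144 UMIs), at 24.7 CPM for well 1 and 62.4 CPM for well 2. Outside the Mrc1-high nuclei, Fcer1g stood at 184 CPM for well 1 and 250 CPM for well 2. Fcgr2b stood there at 130 and 172 CPM, and Fcrls at 21.2 and 91.3 CPM. Epithelial nuclei had 4.98 CPM of Fcer1g, 2.65 CPM of Fcgr2b and 1.33 CPM of Fcrls.

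The order of levels between genes depended on the length they were set against. Per kb of gene span, which fits counting of unspliced RNA, the level of Fcer1g was 44.7 CPM per kb and that of Fcgr2b 11.9 CPM per kb, followed by Fcgr4 (6.12), Fcgr3 (5.76), Fcgr1 (5.35) and Fcrls (2.83). Per kb of exon the level of Fcer1g was again the highest, at 245 CPM per kb, but Fcgr2b, at 37.0 CPM per kb, came below Fcgr4 (52.8) and Fcgr3 (45.7) and above Fcgr1 (22.9) and Fcrls (15.7). The order of Fcgr2b against Fcgr3 and Fcgr4 thus changed only on division by exon length. Undivided (214 against 79.3 and 66.3 CPM) and per kb of span, Fcgr2b was above both. These are 3' libraries, in which counts of mature transcripts do not scale with exon length. Whether introns were counted is not given, so counts of different receptors are compared below only in how their ratio differs between sets of nuclei.

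Across the 5 sets, the inhibitory receptor Fcgr2b was highest in the Mrc1-high nuclei. It stood at 493 CPM there (447 to 542; 420 UMIs), at 228 CPM in the Ifit-high nuclei (151 to 332), at 147 CPM in the Gpnmb-high nuclei (122 to 175), at 137 CPM in the unnamed nuclei (117 to 160) and at 116 CPM in the Il1b-high nuclei (95.2 to 139). The interval of the Mrc1-high nuclei overlapped no other, while the Ifit-high and Gpnmb-high intervals overlapped, as did those of the Gpnmb-high, unnamed and Il1b-high nuclei. The Mrc1-high level was 3.61-fold that of the other macrophage nuclei (3.14 to 4.14), and since 238 of these nuclei came from well 2, the ratio was also taken within wells: it was 2.94 (1.93 to 4.33) in well 1 and 2.93 (2.30 to 3.76) in well 2. After thinning, 37.1% of Mrc1-high nuclei had an Fcgr2b UMI (31.1 to 43.4), against 9.78% to 13.5% in the other 4 sets.

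Fcgr3 was also highest in the Mrc1-high nuclei, at 129 CPM (106 to 156), against 93.1 CPM in the Ifit-high, 76.3 CPM in the unnamed, 70.3 CPM in the Gpnmb-high and 44.8 CPM in the Il1b-high nuclei. Its interval overlapped that of the Ifit-high nuclei (46.5 to 167) and none of the others. The ratio of Mrc1-high to other macrophage nuclei was 1.97 (1.55 to 2.50), with 2.83 (1.48 to 4.98) within well 1 and 1.54 (1.05 to 2.31) within well 2. Fcgr4 had a different order. It was highest in the Ifit-high nuclei at 152 CPM (90.3 to 241; 18 UMIs) and next in the Mrc1-high nuclei at 115 CPM (93.3 to 140), whose intervals overlap, and it stood at 65.2 CPM in the unnamed, 40.6 CPM in the Il1b-high and 35.1 CPM in the Gpnmb-high nuclei. The Mrc1-high ratio for Fcgr4 was 2.18 (1.68 to 2.82) but rested on well 2: it was 2.35 (1.5 to 3.8) there, whereas the 34 Mrc1-high nuclei of well 1 held 1 Fcgr4 UMI, a ratio of 0.259 (0.00652 to 1.47).

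Fcgr1 did not follow Fcgr2b. In the Mrc1-high nuclei it stood at 63.3 CPM (47.6 to 82.7), a ratio of 1.09 (0.790 to 1.49). Its highest level was that of the Ifit-high nuclei, at 161 CPM (96.8 to 251; 19 UMIs), followed by the unnamed nuclei at 83.2 CPM (67.5 to 102), the Mrc1-high nuclei and then the Gpnmb-high nuclei at 44.8 CPM (31.6 to 61.8). The lowest was that of the Il1b-high nuclei, at 26.1 CPM (16.9 to 38.5), 0.373 of the other macrophage nuclei (0.236 to 0.566) and 0.344 (0.215 to 0.531) within well 1. Each neighbour in that order overlapped the next, whereas the Ifit-high, unnamed and Mrc1-high intervals lay wholly above the Il1b-high one. The unnamed nuclei had 1.70-fold the Fcgr1 level of the others (1.29 to 2.22), with 2.01 (1.45 to 2.81) within well 1 and 1.84 on 3 UMIs (0.371 to 5.60) within well 2.

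**Figure D1:**
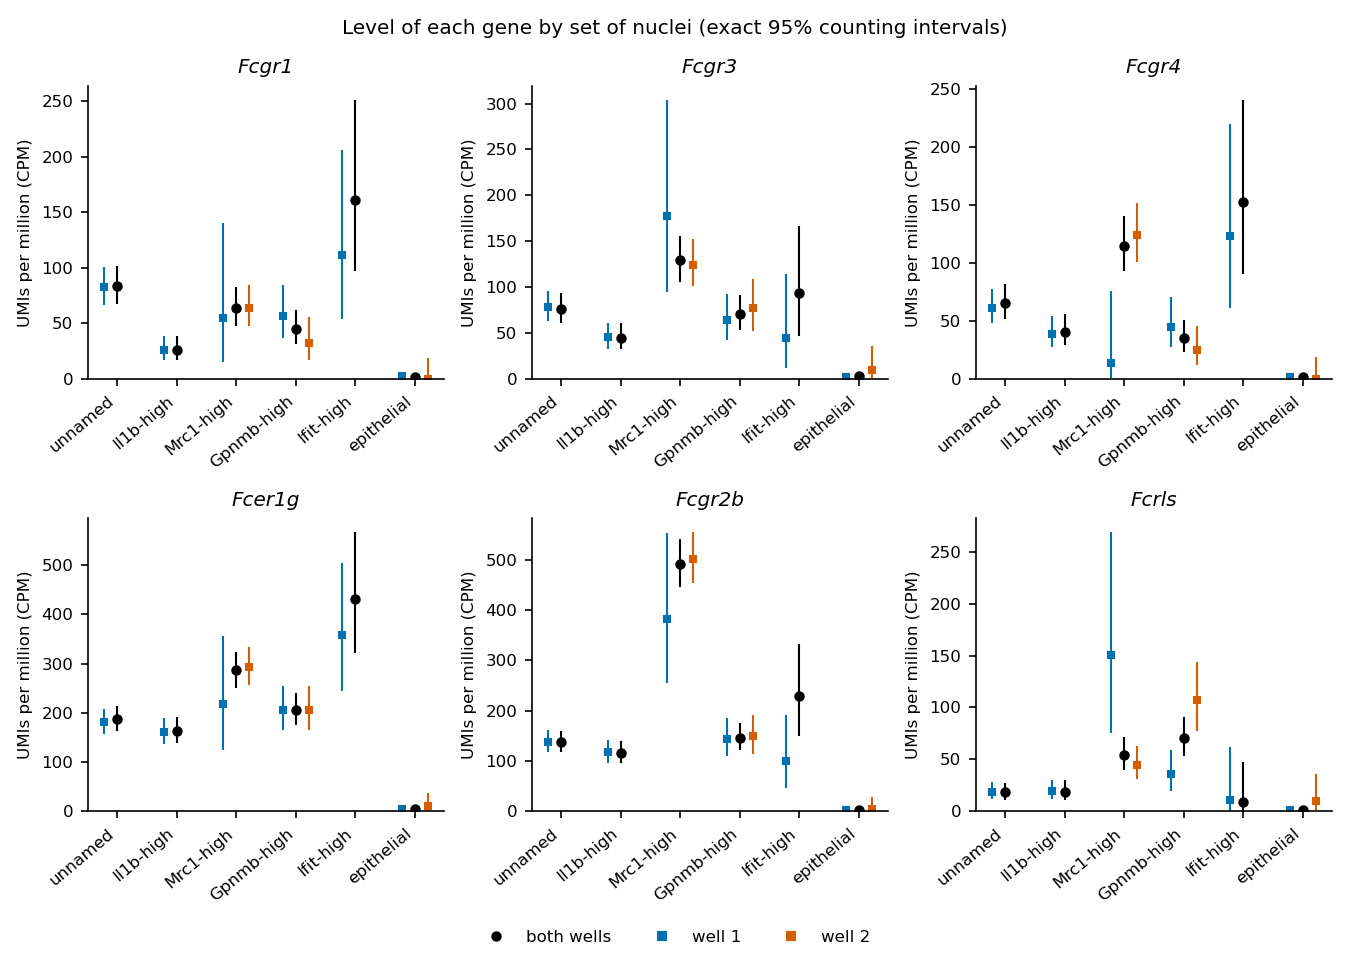
Level of each of the 6 genes (vertical axis, CPM; axes differ between panels and start at 0) in the 5 sets of macrophage nuclei and in epithelial nuclei, for both wells together (circles) and for each well with at least 20 nuclei in the set (squares), with exact 95% counting intervals. Fcgr2b stands at 493 CPM in the Mrc1-high nuclei and at 116 to 228 CPM in the other macrophage sets, Fcgr1, Fcgr4 and Fcer1g are highest in the Ifit-high nuclei, and all 6 genes lie near 0 in epithelial nuclei.

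In the Ifit-high nuclei, 2 activating receptors and the signalling chain stood above the other macrophage nuclei while Fcgr2b did not. The ratio was 2.87 for Fcgr1 (1.69 to 4.59), 2.39 for Fcgr4 (1.39 to 3.86) and 2.08 for Fcer1g (1.54 to 2.76), whose level was 432 CPM (321 to 567). Within well 1 and well 2 the ratios were 1.96 (0.923 to 3.72) and 5.79 (2.54 to 11.7) for Fcgr1, 2.50 (1.22 to 4.63) and 2.58 (1.02 to 5.50) for Fcgr4, and 2.0 (1.35 to 2.86) and 2.47 (1.47 to 3.91) for Fcer1g, so the Fcgr1 interval in well 1 includes 1. The well 2 values rest on 8 nuclei, and 1 of them held 12 of their 19 Fcer1g UMIs. The highest count of the 6 genes together in 1 of these nuclei was 24 of 60 UMIs. Fcgr3 (ratio 1.18, 0.583 to 2.14) and Fcgr2b (1.07, 0.701 to 1.57) were within 1.5-fold, below 1 in well 1 (0.672 and 0.728) and above 1 in well 2 (2.32 and 1.68). Among the windows printed above, only that of Fcgr1 has a TTCNNNGAA match, which 7.179% of all promoter windows have. Those of Fcgr4 and Fcer1g, also higher here, have no TTCNNNGAA match. No motif other than GAGGAA and TTCNNNGAA was searched for, so other interferon-related sequences in these windows are not covered. A part of the motif in these levels was not tested. The set is small, with 35 nuclei and 19 Fcgr1 UMIs.

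The Il1b-high nuclei had the lowest sum of the 6 genes, at 410 CPM (370 to 452) against 567 to 1140 CPM in the other sets. Of the 6 genes 5 were at least 1.5-fold lower there and none higher: Fcgr1 (0.373), Fcrls (0.441), Fcgr2b (0.471), Fcgr3 (0.495) and Fcgr4 (0.545). Of all 9199 genes with at least 30 UMIs, 34.9% were 1.5-fold lower in this set and 8.63% higher, and the median gene was lower by 0.37 on the log2 scale, so low values are common there. With scaling by median-ratio size factors, which removes that shift, the ratios were 0.468 for Fcgr1, 0.553 for Fcrls, 0.590 for Fcgr2b, 0.621 for Fcgr3 and 0.683 for Fcgr4, of which the last is no longer 1.5-fold lower. Within well 1, which held 330 of the 335 nuclei, Fcgr1 (0.344), Fcgr3 (0.588, 0.407 to 0.835) and, just at the limit, Fcgr4 (0.666, 0.444 to 0.980) were still 1.5-fold lower, whereas Fcgr2b (0.792) and Fcrls (0.682) were not. Immediate-early and heat-shock transcripts are highest in the same nuclei, with the immediate-early list at 13202 CPM against 1515 to 4397 CPM in the other sets. Their part in these differences was not tested.

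Fcer1g differed least between sets. It stood at 164 CPM in the Il1b-high nuclei (139 to 191), 187 CPM in the unnamed (163 to 214), 206 CPM in the Gpnmb-high (176 to 239) and 286 CPM in the Mrc1-high nuclei (251 to 324), and its ratios for these 4 sets were between 0.709 and 1.47, within 1.5-fold. Only in the Ifit-high nuclei did it pass 1.5-fold. Fcrls was highest in the Gpnmb-high nuclei at 70.3 CPM (53.4 to 90.8; 58 UMIs), 2.53-fold the others (1.78 to 3.57), with 1.56 (0.817 to 2.83) within well 1 and 2.59 (1.62 to 4.16) within well 2. In the Mrc1-high nuclei Fcrls stood at 54.0 CPM, but the wells went opposite ways: its ratio was 7.10 (3.35 to 13.7; 11 UMIs) within well 1 and 0.492 (0.306 to 0.787; 35 UMIs) within well 2.

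**Figure D2:**
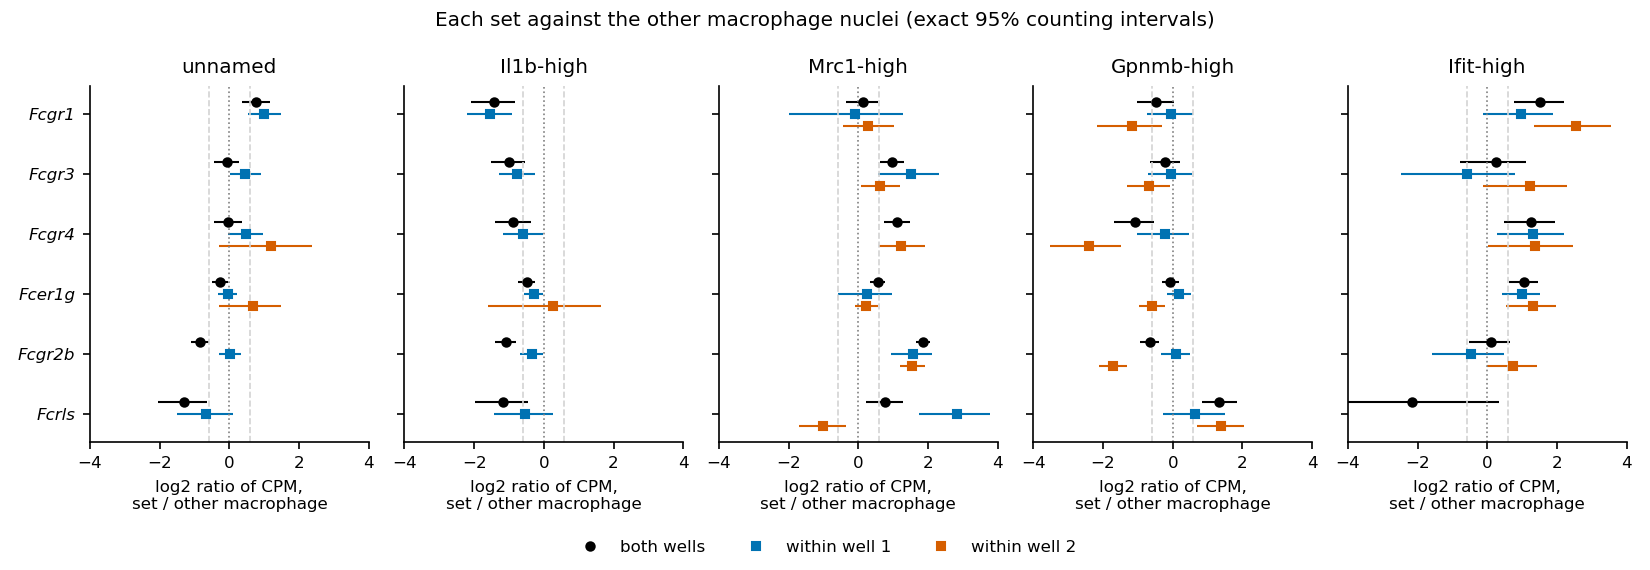
Ratio of each gene's CPM in a set to that in the other macrophage nuclei (horizontal axis, log2; dashed lines mark 1.5-fold) for both wells together (black circles) and within each well where the set held at least 4 UMIs (squares), with exact 95% counting intervals, of which those of Fcrls in the Ifit-high nuclei run past the left edge. Fcgr2b and Fcgr3 are right of 0 in the Mrc1-high nuclei in both wells, and Fcrls lies on opposite sides of 0 in the 2 wells there.

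Over the 30 pairs of gene and set, 9 ratios were at least 1.5-fold higher and 10 at least 1.5-fold lower. The Mrc1-high nuclei had 4 genes higher and 0 lower, where 18.5% of all genes tested were higher and 17.8% lower. The Ifit-high nuclei had 3 higher and 1 lower (all genes 18.9% and 32.5%), the lower one being Fcrls on 1 UMI (ratio 0.225, 0.00566 to 1.27). The unnamed nuclei had 1 higher and 2 lower (all genes 18.6% and 18%), and the Gpnmb-high nuclei 1 higher and 2 lower (all genes 13% and 16%). Of the 19 ratios past 1.5-fold, 18 had an interval that left out 1. In 14 of the 19 both wells lay on the pooled side of 1, and in 5 at least 1 well lay on the other side. These were Fcgr4 in the Mrc1-high and Il1b-high nuclei, Fcrls in the Mrc1-high nuclei, and Fcgr2b in the unnamed nuclei (0.557 pooled, 1.01 within well 1) and in the Gpnmb-high nuclei (0.632 pooled, 1.06 within well 1 and 0.306 within well 2). The denominator of these pooled Fcgr2b ratios includes the 238 Mrc1-high nuclei of well 2. Only 7 of the 19 rested on at least 10 UMIs in both wells. A set with 0 UMIs in a well was counted as on the lower side. In well 2 this held for Fcgr1, Fcgr2b, Fcgr3 and Fcrls in the 5 Il1b-high nuclei. It also held for Fcrls in the 13 unnamed and 8 Ifit-high nuclei. Upper limits of these well 2 ratios were 2.06 to 5.21, apart from Fcgr2b (0.809), so the others cannot show agreement between wells.

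The balance of activating to inhibitory receptor transcripts differed between sets. Over all macrophage nuclei there were 803 UMIs of Fcgr1, Fcgr3 and Fcgr4 together and 839 of Fcgr2b, or 0.957 activating UMIs per Fcgr2b UMI (0.868 to 1.06). The value was 1.29 in well 1 (1.12 to 1.48) and 0.702 in well 2 (0.608 to 0.809). By set it was 0.624 in the Mrc1-high nuclei (0.533 to 0.730), 0.964 in the Il1b-high (0.732 to 1.27), 1.02 in the Gpnmb-high (0.791 to 1.33), 1.64 in the unnamed (1.34 to 2.01) and 1.78 in the Ifit-high nuclei (1.09 to 2.96). The Mrc1-high interval overlapped none of the other 4, the Il1b-high and Gpnmb-high values did not differ beyond their intervals, and the Ifit-high interval overlapped those of the Il1b-high, Gpnmb-high and unnamed nuclei. Within the wells the Ifit-high value was 2.78 in well 1 (1.25 to 6.76, on 9 Fcgr2b UMIs) and 1.28 in well 2 (0.660 to 2.51). The unnamed value was 1.61 in well 1 and 3.0 in well 2, the latter on 3 Fcgr2b UMIs. Nuclei left without a state name at the finer clustering had 0.906, but they are not the same nuclei. They include pieces of the Mrc1-high set (153 and 80 nuclei) and of the Gpnmb-high set (80 nuclei). Finer sub-clusters drawn almost wholly from the unnamed set (160, 145 and 23 nuclei) had 1.70 (1.13 to 2.58), 1.49 (1.16 to 1.92) and 2.25 (0.931 to 5.98). With well 2 clustered alone, nuclei without a state name had 0.967.

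The low value of the Mrc1-high nuclei was seen in each well, at 0.643 in well 1 (0.335 to 1.20; 46 UMIs in all) and 0.622 in well 2 (0.528 to 0.732). The other macrophage nuclei had 1.34 in well 1 (1.16 to 1.55) and 1.09 in well 2 (0.794 to 1.49), so that the intervals of the 2 kinds of nuclei did not overlap in well 2 and overlapped in well 1. The summed activating level was 307 CPM in the Mrc1-high nuclei (271 to 347), against 112 CPM in the Il1b-high, 150 CPM in the Gpnmb-high, 225 CPM in the unnamed and 406 CPM in the Ifit-high nuclei. The ratio of that sum in the Mrc1-high nuclei to the other macrophage nuclei was 1.74 (1.5 to 2.02), with 1.41 in well 1 (0.829 to 2.26) and 1.68 in well 2 (1.31 to 2.16). Fcgr1 per Fcgr2b UMI moved furthest, from 0.129 in the Mrc1-high nuclei (0.0950 to 0.171) to 0.606 in the unnamed (0.466 to 0.785) and 0.704 in the Ifit-high nuclei (0.370 to 1.31). Fcgr3 per Fcgr2b UMI ranged less, from 0.262 (0.210 to 0.324) to 0.556 (0.424 to 0.725) in the same first 2 sets.

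**Figure D3:**
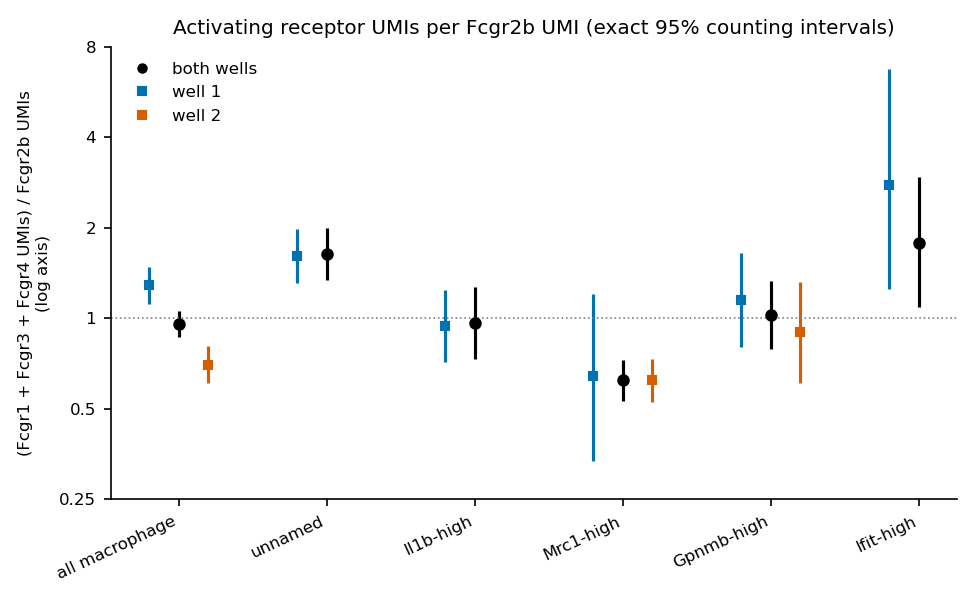
UMIs of Fcgr1, Fcgr3 and Fcgr4 together per UMI of Fcgr2b (vertical log axis) in all macrophage nuclei and in each of the 5 sets, for both wells (circles) and for each well with at least 20 nuclei in the set (squares), with exact 95% counting intervals. The Mrc1-high nuclei lie below 1 at 0.624, with both wells at almost the same value, and the unnamed and Ifit-high nuclei lie above 1.

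Set against the signalling chain, activating receptor UMIs numbered 0.956 per Fcer1g UMI over all macrophage nuclei (0.867 to 1.05), with 0.953 in well 1 and 0.960 in well 2. This ratio was 1.07 in the Mrc1-high nuclei (0.898 to 1.28), 1.20 in the unnamed (1.0 to 1.45), 0.941 in the Ifit-high (0.621 to 1.42), 0.729 in the Gpnmb-high (0.574 to 0.925) and 0.682 in the Il1b-high nuclei (0.528 to 0.877). It spanned a narrower range than the ratio to Fcgr2b, and the wells, which stood apart in that ratio, did not stand apart in this one.

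Both kinds of receptor were also looked for within single nuclei. At 1000 UMIs per nucleus, 36 of 1165 macrophage nuclei had UMIs of both an activating receptor and Fcgr2b (3.09%), 149 of an activating receptor alone, 164 of Fcgr2b alone and 816 of neither. The product of the separate shares is 2.73%, so that the observed share lay close to it. In the Mrc1-high nuclei 7.17% had both, where the product is 8.56%. Without thinning, where depth differs between nuclei, 17.8% of macrophage nuclei had both against a product of 13.5%. The part of depth in that difference was not tested.

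A finer clustering into 12 sub-clusters showed how uniform each set was. The Mrc1-high set split mainly into 3. Its largest piece (153 nuclei, 24 in well 1), led by Bank1, Ccl7 and Pf4, had Fcgr2b at 542 CPM (477 to 614), Fcgr1 at 84.3 CPM and Fcgr4 at 151 CPM. The next (81 nuclei), with Hdc and Olr1 among its leading genes and Cd209a at 71.4 CPM, had Fcgr2b at 429 CPM (345 to 527), Fcgr1 at 42.9 CPM (19.6 to 81.4) and Fcgr4 at 38.1 CPM (16.5 to 75.1). The third (34 nuclei, 1 in well 1), led by Ednrb, C6 and Lyve1, had Fcgr2b at 435 CPM (340 to 548), Fcgr4 at 96.6 CPM (55.2 to 157) and Fcgr1 at 12.1 CPM on 2 UMIs (1.46 to 43.6). High Fcgr2b was thus common to all 3, whereas Fcgr1 and Fcgr4 differed between them, and activating UMIs per Fcgr2b UMI were 0.713, 0.444 and 0.472.

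The Il1b-high set split mainly into a larger part led by heat-shock genes (225 nuclei, 212 of them from the set) with Fcgr1 at 32.2 CPM (19.9 to 49.2), and a smaller part (75 nuclei, 72 in well 1) with Nlrp3, the inflammasome sensor, at 1493 CPM and Il1b at 1594 CPM. The latter held 0 Fcgr1 UMIs among 178820 UMIs, with an exact upper limit of 20.6 CPM, 4 UMIs each of Fcgr3 and Fcgr4 (22.4 CPM, 6.09 to 57.3) and 23 of Fcgr2b (129 CPM, 81.5 to 193). Its value of 0.348 activating UMIs per Fcgr2b UMI (0.134 to 0.806) was the lowest of the 12. The Gpnmb-high set also split in its Fcgr1 level: the part with Gpnmb at 981 CPM (105 nuclei) had 7.67 CPM on 3 UMIs (1.58 to 22.4), and the part led by Chst1, Igf1 and Sort1 (88 nuclei, 80 of them from the set) had 58.3 CPM (32.7 to 96.2). Fcrls was among the 10 leading genes of the latter, at 113 CPM (75.5 to 162), and Fcgr2b did not differ between the 2 parts beyond its intervals, at 133 and 171 CPM. A further sub-cluster (103 nuclei), led by Acod1, Slc7a11 and Mmp13 with Mmp12 at 937 CPM, drew 44 nuclei each from the Il1b-high and Gpnmb-high sets. Its Fcgr1 level was 73.4 CPM (49.2 to 105), and it held 2.16 activating UMIs per Fcgr2b UMI (1.45 to 3.28).

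**Figure D4:**
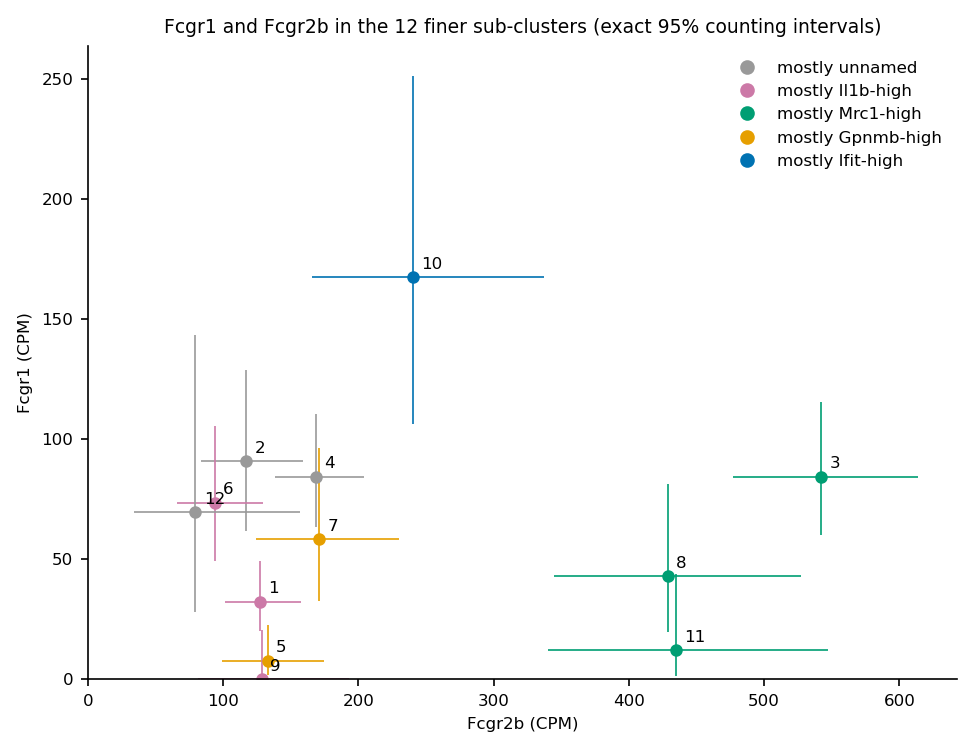
Level of Fcgr1 (vertical axis, CPM) against that of Fcgr2b (horizontal axis, CPM) in the 12 finer sub-clusters of macrophage nuclei, numbered by size and coloured by the set that holds most of their nuclei, with exact 95% counting intervals. The 3 Mrc1-high sub-clusters (3, 8 and 11) lie to the right at 429 to 542 CPM of Fcgr2b, the Ifit-high one (10) has the highest Fcgr1 level, and sub-clusters 5, 9 and 11 have the lowest.

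The genes around the receptors were read from 9 lists. Of 96 list genes with at least 30 UMIs, 29 were 1.5-fold higher and 20 lower in the Mrc1-high nuclei (30.2% and 20.8%; all genes 18.5% and 17.8%), with a median ratio of 1.07. In the Il1b-high nuclei 6 were higher and 27 lower (6.25% and 28.1%; all genes 8.63% and 34.9%), and in the Ifit-high nuclei 18 and 19 (18.8% and 19.8%; all genes 18.9% and 32.5%). The corresponding counts were 18 and 21 in the unnamed nuclei (18.8% and 21.9%; all genes 18.6% and 18%) and 10 and 22 in the Gpnmb-high nuclei (10.4% and 22.9%; all genes 13% and 16%). The shares of higher genes in the Ifit-high and unnamed nuclei are near those of all genes.

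Among other receptors for immunoglobulin, Fcgrt, which encodes the neonatal Fc receptor that recycles IgG, stood at 47.4 CPM in macrophage nuclei and at 156 CPM in the Mrc1-high nuclei against 17.3 CPM in the others (ratio 9.03, 6.52 to 12.7). This rested on well 2, where 131 of the 133 UMIs lay (ratio 8.80), while well 1 had 2. Fcrl1, a B cell Fc receptor-like gene, stood at 22.7 CPM, with a ratio of 0.260 in the Mrc1-high nuclei (0.0928 to 0.591), and Trim21, the cytosolic antibody receptor, at 9.69 CPM. Of 11 such genes 3 had enough UMIs. Of the immunoglobulin chain genes, those of the IgG heavy chains, Ighg1, Ighg2b, Ighg2c and Ighg3, had 0 UMIs in macrophage nuclei. Ighm, the IgM heavy chain, had 36.7 CPM, with 8.48 CPM in the Gpnmb-high nuclei against 44.3 CPM in the others (ratio 0.192, 0.0756 to 0.406). Igha and Igkc stood at 8.16 and 7.91 CPM.

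Among ITAM chains and their partner receptors, most genes were higher in the Mrc1-high nuclei and lower in the unnamed and Il1b-high nuclei. Tyrobp, the DAP12 chain that serves Trem2 and other receptors as Fcer1g serves the Fc receptors, stood at 161 CPM and was within 1.5-fold in every set, with ratios of 0.892 to 1.10. Of the 10 genes tested, 8 were higher and 1 lower in the Mrc1-high nuclei, 7 were lower and 0 higher in the unnamed nuclei, and 7 were lower and 0 higher in the Il1b-high nuclei. Over all genes tested 18.5% were higher in the Mrc1-high nuclei, and 18% and 34.9% were lower in the unnamed and Il1b-high nuclei. Within well 1, Trem2 (0.798), Pira2 (0.673) and Cd300ld (0.980) were not 1.5-fold lower in the unnamed nuclei. In the Mrc1-high nuclei Pira2, an activating receptor that pairs with the gamma chain, stood at 54.0 CPM against 5.87 CPM (ratio 9.20, 5.23 to 16.9; 10.1 and 6.35 within the wells), and Cd300lb at 114 CPM against 28.3 CPM (ratio 4.01, 2.97 to 5.42; 4.14 and 2.01 within the wells). The lectin receptor genes Clec4d and Clec4n, whose products signal through the gamma chain, had pooled ratios of 2.20 and 1.90 but 0.762 and 0.926 within well 2. Cd300ld stood at 66.9 CPM against 8.47 CPM, with all 57 of its Mrc1-high UMIs in well 2. Trem2 (60.2 CPM) was highest in the Gpnmb-high nuclei, at 94.5 CPM, and is also one of the markers that named that set. In the Ifit-high nuclei Cd300ld and Clec4d had 0 UMIs, with intervals of the ratio that reach 1.46 and 1.54.

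Of the receptors with an inhibitory motif, 4 of 12 were higher and 3 lower in the Mrc1-high nuclei (all genes 18.5% and 17.8%). Pirb, the inhibitory partner of the paired immunoglobulin-like receptors, behaved like Fcgr2b: it stood at 236 CPM there against 64.5 CPM (ratio 3.65, 2.99 to 4.47), with 2.80 within well 1 and 3.44 within well 2. Clec4a2 had a ratio of 3.52 there (2.87 to 4.34) and of 0.256 in the Il1b-high nuclei (0.169 to 0.375). Those of highest CPM, not scaled to gene length, did not share this pattern. Lair1, a collagen receptor, stood at 960 CPM, with 473 CPM in the Mrc1-high nuclei and 1570 CPM in the unnamed nuclei (ratios 0.431 and 2.23), but its Mrc1-high ratio was 0.941 within well 2. Sirpa, which binds CD47, stood at 797 CPM with ratios of 0.871 to 1.20, and Lilrb4a at 448 CPM, with a ratio of 1.58 in the Gpnmb-high nuclei. Siglece had 0 UMIs in the Ifit-high nuclei (ratio interval up to 1.91).

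**Figure D5:**
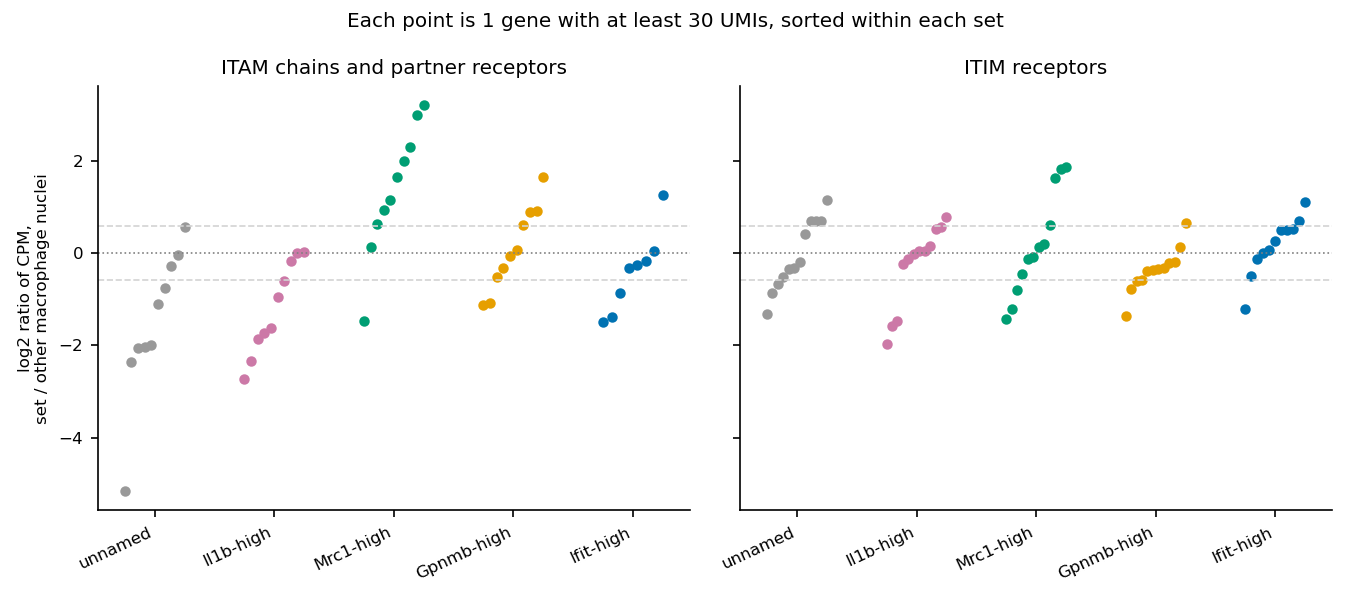
Ratio of CPM in a set to that in the other macrophage nuclei (vertical axis, log2; dashed lines mark 1.5-fold) for genes of ITAM chains and partner receptors (left) and of ITIM receptors (right), 1 point per gene with at least 30 UMIs and at least 1 in the set. In the Mrc1-high nuclei 8 of 10 genes of the left list lie above the upper line and 1 below the lower, and 4 of 12 genes of the right list lie above and 3 below, and in the unnamed nuclei 7 of 10 of the left list lie below. Of all genes tested, 18.5% were higher and 17.8% lower in the Mrc1-high nuclei, and 18% were lower in the unnamed nuclei.

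Levels of the kinases that act on the motifs ran from 76.5 CPM (Src) to 2858 CPM (Lyn), with Syk at 462 CPM. These levels are not scaled to gene length. Fgr was higher in the Mrc1-high nuclei (476 against 152 CPM; ratio 3.13, 2.73 to 3.58), with 2.56 and 2.17 within the wells, and so was Syk (ratio 1.65, 1.49 to 1.82; 1.40 and 1.27 within the wells). Src was lower there (12.9 against 94.2 CPM; ratio 0.137, 0.0676 to 0.249; 0.542 on 4 UMIs and 0.157 within the wells). Fyn was lowest in the unnamed nuclei, at 41.2 CPM against 155 CPM (ratio 0.266; 0.395 within well 1). In the Ifit-high nuclei Lyn had a ratio of 1.52 (1.39 to 1.66).

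On the inhibitory side Inpp5d, whose product SHIP1 binds the tail of the Fcgr2b receptor, stood at 2161 CPM, above Ptprc (CD45) at 1122 CPM and the Csk-binding adaptor Pag1 at 593 CPM. Inpp5d did not follow Fcgr2b: its ratio was 0.854 in the Mrc1-high nuclei (0.808 to 0.901) and 1.54 in the unnamed nuclei (1.47 to 1.61; 1.49 and 1.40 within the wells). Dok2, an adaptor that restrains Ras signalling, was different, with 47 of its 48 UMIs in the Mrc1-high nuclei (55.1 CPM there; ratio 169, 28.9 to 6824, against 1 UMI elsewhere), 4 in well 1 and 43 in well 2, and 0 in the unnamed nuclei. Inppl1, the relative of Inpp5d, had 1 UMI in the Ifit-high nuclei (ratio 0.262, 0.00657 to 1.49).

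Of 19 adaptors and lipid enzymes tested, 1 to 3 were higher and 2 to 4 lower in each set, against 8.63% to 18.9% and 16% to 34.9% of all genes. Gab2 (2716 CPM), Grb2 (686 CPM) and Vav3 (677 CPM) had the highest CPM, not scaled to gene length. Pik3cb, a catalytic subunit of PI3 kinase, had a ratio of 0.296 in the Mrc1-high nuclei (0.244 to 0.356), with 0.212 and 0.440 within the wells, and Sos1 a ratio of 3.84 in the Ifit-high nuclei (2.65 to 5.41), with 3.90 and 3.86. Of the engulfment and oxidative burst genes, led by Wipf1 (921 CPM), Cybb (594 CPM) and Cdc42 (512 CPM), 4 of 16 were higher and 0 lower in the unnamed nuclei (all genes 18.6% and 18%), and 1 higher and 5 lower in the Il1b-high nuclei, near the shares of all genes (8.63% and 34.9%). Was, which drives actin branching under the phagocytic cup, had a ratio of 0.270 in the latter (0.120 to 0.532) and Pak1 of 0.309 in the Mrc1-high nuclei (0.202 to 0.455), with 0.701 and 0.605 within the wells.

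Genes known to regulate Fc receptor transcription were led by Tgfbr1 (2432 CPM), Tgfbr2 (521 CPM) and Il10ra (317 CPM). C5ar1, the receptor for the complement fragment C5a, stood at 293 CPM in the Mrc1-high nuclei against 61.3 CPM (ratio 4.79, 3.95 to 5.82), but its ratio was 0.846 within well 1, on 3 UMIs, and 2.41 within well 2. Spi1, which encodes PU.1, was within 1.5-fold in every set, with ratios of 0.764 to 1.37. Of the 14 genes tested, 5 were higher and 4 lower in the Mrc1-high nuclei (all genes 18.5% and 17.8%).

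The genes most alike to each member were taken as those with the highest Pearson correlation of log2(CPM + 10) among 8912 genes, over 8 sets of nuclei, which were 5 macrophage sub-clusters, 2 epithelial clusters and the low-count cluster. These points share libraries and are few, so the values are a description. In the epithelial clusters the members lay at the background level. Each r therefore also carries the difference between macrophage and epithelial nuclei, and is no measure of likeness across macrophage sets alone. Fcgr2b was closest to Ms4a6d (r = 0.994), Itgam, which encodes CD11b (0.992), and Tns1 (0.991), and Fcgr3 to Tns1, Ms4a6d and Fgr (0.992, 0.992 and 0.988). Fcgr4 was closest to Ms4a6c, Ms4a6b and Ntng2 (0.993, 0.993 and 0.992), Fcer1g to C1qc, C1qa and Marcks (0.995, 0.989 and 0.989), Fcgr1 to Pde4a, Tmem19 and Mob3c (0.992, 0.982 and 0.980), and Fcrls to Il17ra, Mpp1 and Atp8b4 (0.976, 0.968 and 0.954).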

How the data were processed

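Single-nucleus RNA was measured in 2 samples, 1 per genotype, pooled in 1 matrix. The authors deposited raw UMI counts per gene and barcode, made with Cell Ranger 5.0 on mm10 per the submitters' processing notes (5.0.1 per the file headers), from 10x 3' v3 libraries with 11 cycles of cDNA amplification per the labels' protocols. Sources used here do not give the gene annotation, whether introns were counted, or how barcodes were called as nuclei. With introns counted, long genes gain UMIs. The barcode suffix marks 2 wells, and 0 of these could be mapped to a sample.

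Nuclei with under 500 UMIs, under 300 genes or over 5% mitochondrial UMIs (21 barcodes) and 5 doublets called by Scrublet per well (scanpy 1.11.5) were removed. Counts were scaled to 10000 and log-transformed, 2000 variable genes, without the 6 genes and the list genes, gave 30 principal components, and a graph of 15 neighbours was clustered by the Leiden method (igraph 0.11.9, resolution 0.5), then again for macrophage clusters alone. Clusters were named from markers of 13 cell types and 7 states (at least 3 markers, each with at least 5 UMIs, 20 CPM and 0.5 of the highest cluster's level). A state name also asked for 50% of its list and a UMI of the list in 50% of the nuclei. The scoring rules were set after clusters had been seen, and the members and lists were chosen with earlier results of these data known.

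Levels are CPM of summed counts with exact Poisson intervals, ratios have exact conditional binomial intervals, and shares Clopper-Pearson intervals (scipy 1.17.1). A ratio of at least 1.5, or at most its inverse, with 30 UMIs in both sets together was counted as higher or lower. The step was tested on simulated counts. Of each list the text names the 3 genes of highest level and the 2 of largest ratio, and others, such as Pirb, Pira2, Clec4n, Fgr, Spi1 and Dok2 in the Mrc1-high nuclei, were chosen after their values were seen. Gene positions are from GENCODE vM21, in which 32158 of 32285 gene identifiers were found. The listed gene Pira6 had no row of that symbol. Values of a few genes that the rule would name are not reported here.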

Additional observations from a re-analysis of the deposited data

How the results depend on the processing

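Over 18 alternatives, 479 of 644 recomputed values moved by less than their interval, and of 281 recomputed ratios past 1.5-fold in the main analysis 265 stayed on their side of 1. An alternative that only raised the minimum of UMIs could change no ratio, since even Fcrls, with 144 UMIs, passed it. Its ratios are nevertheless among those counted as unmoved and on their side. The summed level of 670 CPM was 570 CPM with at least 1000 UMIs per nucleus, 523 CPM in well 1, 983 CPM in well 2, 522 and 1123 CPM when well 1 and well 2 were clustered alone, and 636 CPM as a mean over nuclei. The activating to Fcgr2b ratio of 0.957 was 1.18 with at least 1000 UMIs, 1.29 in well 1 (also clustered alone), 0.702 in well 2 and 0.720 when well 2 was clustered alone. The 19 ratios past 1.5-fold were 11 with 4000 variable genes and 12 in well 2 clustered alone. Clustering wells alone, leaving out the cycling cluster and counting the low-count cluster were chosen after seeing the data.

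The ratios that changed sides were these. For Fcgr2b they were 1.83 (unnamed set, finer macrophage clustering), 1.01 and 1.22 (unnamed, well 1 and well 1 clustered alone), 1.002 (Il1b-high, well 1 clustered alone), and 1.06 and 1.23 (Gpnmb-high, the same 2 settings). For Fcrls they were 1.18, 1.45 and 2.07 (unnamed, with at least 1000 UMIs, finer clustering and well 2 clustered alone), 0.569, 0.159, 0.492 and 0.580 (Mrc1-high, with at least 1000 UMIs, finer clustering, well 2, and well 2 clustered alone) and 1.94 (Ifit-high, at least 1000 UMIs). For Fcgr4 they were 1.72 (Il1b-high, well 2, 2 UMIs) and 0.259 (Mrc1-high, well 1). Finer clustering changes which nuclei carry a set's name, and for the other settings the cause was not tested. The Mrc1-high Fcgr2b ratio ranged from 2.13 to 3.78. Depth limits what can be read of Fcgr1, Fcgr4 and Fcrls in the 35 Ifit-high nuclei. No paired analysis was possible because the wells carry no sample label and each genotype has 1 sample.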
